A study of Mus musculus with 14 samples.

Results

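The conversion of germline stem cells into pluripotent cells was followed in mouse lines of the OG2-ROSA background. Germline-derived pluripotent stem (gPS) lines 1, 2 and 3, described as clonal, were set against germline stem cell (GSC) lines 1, 2 and 3. All 6 lines carried an Oct4-GFP transgene together with a LacZ transgene, on a C57BL6 and 129sv cross, so the reporter and the strain were shared by both groups. The 6 samples were chosen by their labels, 3 and 3 of the 14 in the series, with 1 Illumina Mouse-8 v2 array of 25697 probes per line. The labels give the gPS lines as pluripotent and the GSC lines as unipotent. The remaining samples were 3 gPS OG2 and 3 GSC OG2 lines, which carried Oct4-GFP on C57BL6 without the LacZ label, and 2 embryonic stem cell arrays. The labels do not say which GSC line each gPS line came from, how long each line was cultured or the age of the donor mice. Unless OG2 is named, gPS and GSC below mean the OG2-ROSA lines.

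Germline stem cells are cultured spermatogonial stem cells. They grow in response to GDNF, which acts through the receptors Ret and Gfra1, and normally give rise to sperm cells alone. Pluripotent stem cells are held by a circuit of transcription factors around Pou5f1, Sox2 and Nanog, and they respond to signals such as LIF, BMP and Nodal. Germ cells and pluripotent cells share part of this circuit, including Pou5f1 and Sall4, so their identities are separated by a limited set of further regulators.

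Values are normalized log2 intensities, on which a difference of 1 is a 2-fold difference in signal. They compare the same probe between arrays and do not rank genes against each other. A probe counted as detected at a detection p below 0.01. Those detected by 2 or more of the 6 arrays, 12006 probes (46.72%), were tested. A probe was called changed at a Benjamini-Hochberg adjusted p under 0.05 in limma, with 3 lines on each side. The arrays did not start equally bright. Mean raw signal was 379, 308 and 580 on the arrays of gPS lines 1, 2 and 3, against 614, 634 and 619 on those of GSC lines 1, 2 and 3, and 9638 to 10295 probes were detected per gPS array against 10950 to 11234 per GSC array. Across probes, Pearson's r was 0.922 to 0.952 between gPS arrays, 0.965 to 0.983 between GSC arrays and 0.745 to 0.792 between the groups. These correlations run over the tested probes of the same arrays and are a description. Leaving out the dim arrays of gPS lines 1 and 2 leaves 1 gPS array, which is then assumed to vary like the GSC lines, and 5337 probes were called in that fit, against 5389 with all 6 arrays. The part of array brightness in the results was not tested beyond this. In whole cultures, fewer cells of a type and less RNA per cell cannot be told apart, and this holds for every change given here.

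In gPS lines, 2542 probes were called higher (21.2% of those tested) and 2847 lower (23.7%) than in GSC lines, so 44.9% of tested probes were called. At least 2-fold changes were called at 4111 probes (34.2%), 1938 of them higher and 2173 lower. The largest changes went beyond 16-fold, at 93 probes higher and 99 lower. Of the calls, 47.2% were higher. This split depended on the scaling, since it was 27.9% where arrays were scaled to equal medians and 56.2% where the medians of tested probes were equalised. The median change over tested probes moved with it, at -0.0691 after quantile normalization, -0.429 and 0.0905, so small changes have no settled sign. Taken at 1 probe per gene, 8297 genes were tested, of which 46.1% were called, 20.7% higher and 25.3% lower. Counts within the gene lists used below are to be read against these shares. All lists and their members were chosen with earlier results of these data known, so their counts describe the lists and are not independent tests. The groups did not overlap at 26.7% of probes with gPS lines higher and at 30% with gPS lines lower, or at 26% and 32% of genes. Of the lower probes, 955 were undetected on all 3 gPS arrays, and 455 of the higher probes were undetected on all 3 GSC arrays. Their folds are lower bounds, given where above 1, of the bright group's mean over the lowest signal that counts as detected on each dim array. Where some arrays of a group detected a probe and others did not, the fitted change rests in part on background values, and list medians hold such fitted changes too.

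The genes that rose most included secreted signals, pluripotency regulators and enzymes. Trh, the precursor of thyrotropin-releasing hormone, had log2 intensities of 12.95, 13.25 and 12.84 in gPS lines 1, 2 and 3, against 5.15, 5.10 and 5.52 in GSC lines 1, 2 and 3. It was thus bright in every gPS line and undetected in every GSC line, at least 160.2-fold higher. L1td1, an RNA-binding protein derived from a retrotransposon, gave 12.73, 11.78 and 12.31 in gPS lines against 4.72, 5.03 and 4.76 in GSC lines, and was at least 96.0-fold higher (log2 change 7.44, SE 0.28, adjusted p = 3.5e-06). Lefty2, a secreted inhibitor of Nodal, was detected in every gPS line but unevenly, at 13.73, 12.30 and 9.84, against 4.58, 4.80 and 4.78 in GSC lines. It was at least 77.1-fold higher, and its SE of 0.83 was the largest among the 15 largest rises. Gtsf1l, a gametocyte-specific factor paralog, Cldn4, a claudin of epithelial tight junctions, and Krt42, a type I keratin, were likewise undetected in all GSC lines and at least 35.5-fold, 43.2-fold and 27.6-fold higher. Bcat1, an enzyme of branched-chain amino acid breakdown, and Slc7a3, a transporter of cationic amino acids, had log2 changes of 6.29 (SE 0.22) and 6.10 (SE 0.28). All 15 of the largest rises had their gPS lines above their GSC lines, as the rule that chose them required.

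The genes that fell most included germ cell genes. Xlr4a, an X-linked gene of a lymphocyte-regulated family, had log2 intensities of 5.19, 5.13 and 5.26 in gPS lines against 13.11, 13.33 and 13.66 in GSC lines. It was undetected in every gPS line and at least 150.7-fold lower. Dazl, an RNA-binding protein needed by germ cells, gave 5.40, 4.70 and 5.38 in gPS lines against 12.32, 12.51 and 12.44 in GSC lines, at least 78.3-fold lower. Egr4, a zinc finger factor of spermatogonia, differed more between gPS lines, at 7.30, 5.88 and 4.67, against 13.83, 13.43 and 14.05 in GSC lines, and was detected in gPS line 1 only. Its log2 change of -7.82 (SE 0.58, adjusted p = 5e-05) is therefore a fitted value that rests on background levels in the other two gPS lines. Tuba3a, an alpha-tubulin of testis, and Lyz1, a lysozyme, were also among the 15 largest falls, with log2 changes of -6.98 and -6.40. That Tuba3a probe was undetected in gPS line 3, and another Tuba3a probe, detected on all 6 arrays, had a log2 change of -4.90. Lyz1 was detected in gPS line 3 alone among gPS lines. Xlr4a, Nlrp4c, Mageb4, Tuba3a, Lyz1 and Lefty1 belong to families of closely similar genes, and probe sequences were not compared with their relatives here.

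**Figure D1:**
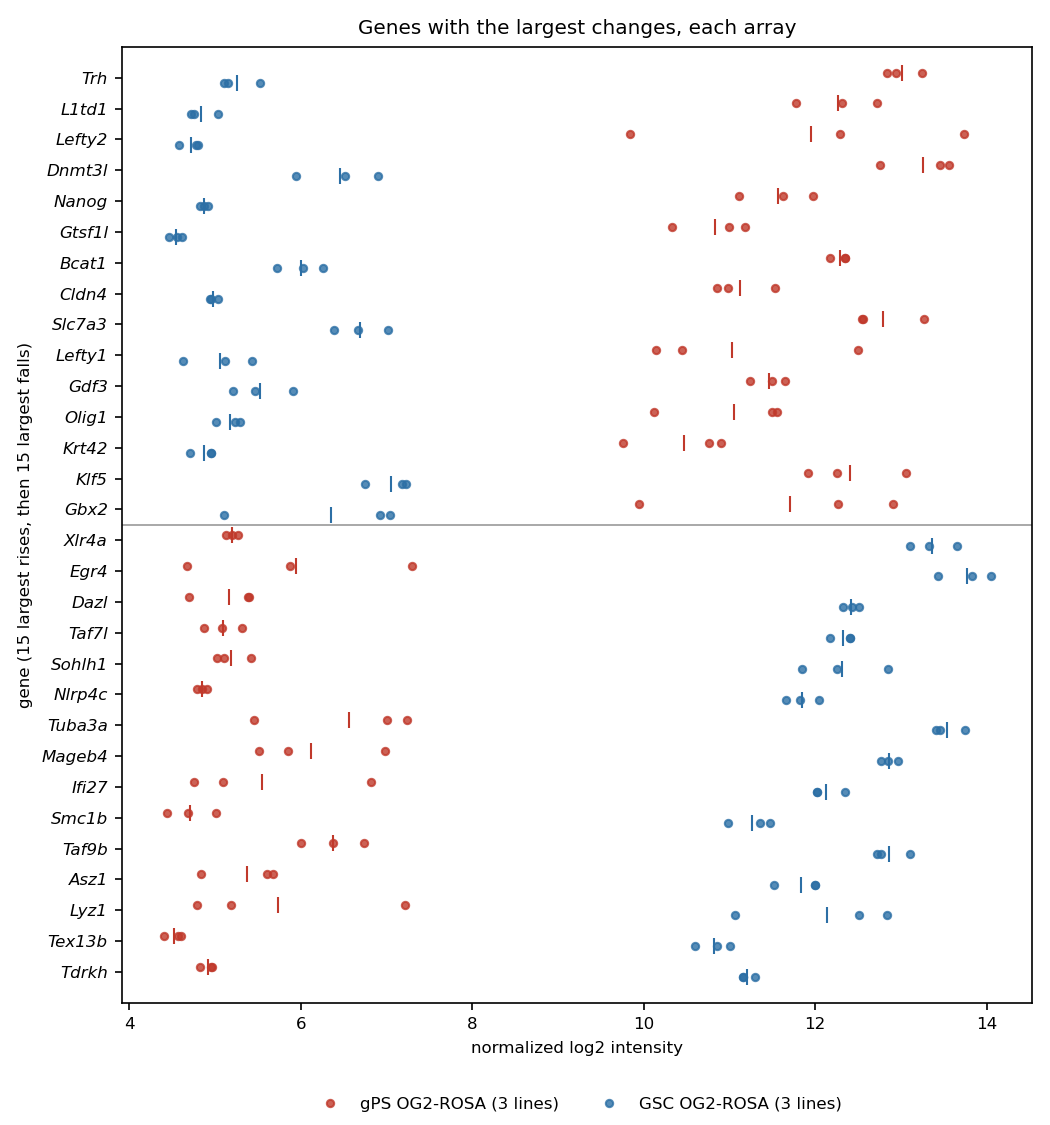
Normalized log2 intensity (x axis) of the 15 genes with the largest rise and the 15 with the largest fall, by gene (y axis). Points are the 3 gPS OG2-ROSA lines (red, upper row of each gene) and the 3 GSC OG2-ROSA lines (blue, lower row), and ticks are group means; Lefty2 spans 9.84 to 13.73 in gPS lines, whereas Dazl spans 12.32 to 12.51 in GSC lines.

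The promoters of 6 of these genes are shown because the CpG dinucleotide, the target of DNA methylation in mammals, differs in number between them. Each run covers 250 bases before to 50 bases after the annotated start, 300 bases in all, in the direction of the gene, from RefSeq on GRCm38.p6, with CpG in capitals. Trh (chr6:92244601-92244900, minus strand), L1td1 (chr4:98726504-98726803, plus strand) and Nanog (chr6:122707239-122707538, plus strand, the upstream one of 2 listed starts) were higher in gPS lines. Dazl (chr17:50293571-50293870), Taf7l (chrX:134476441-134476740) and Smc1b (chr15:85131908-85132207), all on the minus strand, were lower.
Trh: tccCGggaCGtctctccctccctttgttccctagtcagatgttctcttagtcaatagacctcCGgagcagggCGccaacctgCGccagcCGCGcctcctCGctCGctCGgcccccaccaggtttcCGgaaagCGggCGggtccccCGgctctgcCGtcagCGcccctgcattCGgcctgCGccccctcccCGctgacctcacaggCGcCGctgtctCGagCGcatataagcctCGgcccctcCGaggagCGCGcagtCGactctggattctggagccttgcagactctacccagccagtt
L1td1: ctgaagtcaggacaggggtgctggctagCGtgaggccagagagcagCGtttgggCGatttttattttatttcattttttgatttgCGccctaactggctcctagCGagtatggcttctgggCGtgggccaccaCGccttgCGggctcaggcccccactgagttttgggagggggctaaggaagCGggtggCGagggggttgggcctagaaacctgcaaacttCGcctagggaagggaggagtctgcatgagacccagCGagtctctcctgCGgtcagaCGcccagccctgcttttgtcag
Nanog: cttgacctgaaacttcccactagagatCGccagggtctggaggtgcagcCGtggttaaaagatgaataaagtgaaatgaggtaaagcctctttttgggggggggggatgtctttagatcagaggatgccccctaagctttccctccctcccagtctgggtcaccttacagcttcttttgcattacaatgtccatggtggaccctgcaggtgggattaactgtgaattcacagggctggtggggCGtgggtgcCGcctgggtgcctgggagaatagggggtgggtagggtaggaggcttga
Dazl: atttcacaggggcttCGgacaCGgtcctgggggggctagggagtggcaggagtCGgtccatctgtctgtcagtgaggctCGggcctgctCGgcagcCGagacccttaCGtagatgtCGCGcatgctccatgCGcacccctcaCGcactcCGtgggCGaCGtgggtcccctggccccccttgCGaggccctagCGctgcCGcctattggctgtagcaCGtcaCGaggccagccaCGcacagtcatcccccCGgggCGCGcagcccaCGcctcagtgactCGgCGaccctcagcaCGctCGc
Taf7l: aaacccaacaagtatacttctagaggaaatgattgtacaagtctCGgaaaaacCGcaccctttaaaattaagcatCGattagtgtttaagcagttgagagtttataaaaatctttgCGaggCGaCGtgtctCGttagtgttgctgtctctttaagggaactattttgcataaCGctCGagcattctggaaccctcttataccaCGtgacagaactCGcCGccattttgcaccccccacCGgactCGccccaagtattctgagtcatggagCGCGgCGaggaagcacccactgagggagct
Smc1b: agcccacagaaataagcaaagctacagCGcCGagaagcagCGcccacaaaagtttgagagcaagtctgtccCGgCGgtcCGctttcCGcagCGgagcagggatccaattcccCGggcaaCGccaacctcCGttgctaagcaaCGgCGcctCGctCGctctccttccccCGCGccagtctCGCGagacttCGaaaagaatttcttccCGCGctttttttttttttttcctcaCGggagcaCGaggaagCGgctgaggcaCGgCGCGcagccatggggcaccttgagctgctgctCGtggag
The count of CpG was 28 in Trh, 14 in L1td1 and 4 in Nanog among the genes that were higher, and 28 in Dazl, 17 in Taf7l and 29 in Smc1b among those that were lower. The 3 shown on the higher side thus ranged from 4 to 28, and the 3 shown on the lower side had at least 17. Over genes with 1 listed start, the median was 14 CpG in genes called at least 16-fold higher (37 promoters) and 14 in genes called at least 16-fold lower (54 promoters), against 22 in tested genes that were not called (2962 promoters) and 7 in all RefSeq genes (22862 promoters). Among the at least 16-fold lower genes, the 16 X-linked promoters had a median of 9 CpG and a highest value of 17, and the 36 autosomal promoters had a median of 19. The letters CACGTG, which read the same on both strands, were present in 10 of the 54 promoters of at least 16-fold lower genes (18.5%) and in 4 of the 37 of at least 16-fold higher genes (10.8%), against 10.03% of promoters of genes not called and 7.12% of all RefSeq promoters. In the wider classes of at least 2-fold change it was in 10.07% of the promoters of lower genes and 12.97% of those of higher genes, so the share on the lower side was not raised there. Taf7l held it and Dazl, Smc1b, Trh, L1td1 and Nanog did not. The octamer ATGCAAAT, on either strand, was in 0 of the 54 and 0 of the 37, against 1.45% of the promoters of genes not called, and the letters TCCCGC on either strand were in 22.2% and 24.3%, against 38.2%.

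The core and naive pluripotency factors moved one way. Of 9 tested core factors, 7 were called higher in gPS lines and 0 lower, with a median log2 change of 2.91, and of 14 naive factors 12 were called higher and 0 lower, with a median of 3.11. The shares over all genes were 20.7% higher and 25.3% lower, with a median change of -0.112. Nanog, the homeodomain factor that marks naive cells, had log2 intensities of 11.97, 11.11 and 11.63 in gPS lines against 4.83, 4.92 and 4.87 in GSC lines, and was at least 59.1-fold higher since no GSC array detected it. Sox2, the partner of Pou5f1 on DNA, gave 10.30, 10.60 and 9.70 in gPS lines against 4.89, 7.14 and 6.05 in GSC lines, where lines 2 and 3 detected it and line 1 did not (log2 change 4.18, SE 0.53, adjusted p = 0.0006). Pou5f1 itself was well above background on both sides, at 13.20, 13.09 and 12.99 in gPS lines against 9.27, 10.28 and 9.70 in GSC lines (log2 change 3.35, SE 0.28, adjusted p = 9.1e-05). Its gPS values lay within a narrow band above all GSC values. Utf1, a chromatin-bound pluripotency factor, had a log2 change of 5.23 (SE 0.29).

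Among naive factors the rise was led by Klf5, Gbx2, Esrrb and Eras. Esrrb, an orphan nuclear receptor, gave 13.39, 12.92 and 12.76 in gPS lines against 7.90, 7.71 and 7.88 in GSC lines (log2 change 5.19, SE 0.24), with tight values in both groups. Klf5, a Kruppel-like zinc finger factor, gave 13.06, 12.26 and 11.91 in gPS lines against 7.19, 6.75 and 7.22 in GSC lines. Gbx2, a homeobox factor downstream of LIF, was less even, at 12.27, 12.90 and 9.95 in gPS lines against 5.11, 7.04 and 6.93 in GSC lines (log2 change 5.35, SE 0.80). Eras, a constitutively active Ras protein of embryonic stem cells, was undetected in GSC lines and at least 10.7-fold higher. Zfp42, also called Rex1, had a log2 change of 2.51 (SE 0.21, adjusted p = 8.6e-05) and Myc was at least 2.23-fold higher. Klf4 was the marginal member, at 11.32, 9.49 and 9.63 in gPS lines against 9.03, 7.93 and 8.66 in GSC lines (log2 change 1.61, SE 0.51, adjusted p = 0.034). Its gPS and GSC values did not overlap, and its call was lost where gPS line 1 was left out (log2 change 1.02, adjusted p = 0.054), where any GSC line was left out (adjusted p 0.051 to 0.11), with no probe filter (0.097) and with arrays scaled to equal medians (log2 change 1.18, adjusted p = 0.098). Without both dim arrays, which leaves 1 gPS line, the adjusted p was 0.074.

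Lin28a and Sall4, regulators shared by germ cells and pluripotent cells, were not called. Lin28a, an RNA-binding inhibitor of let-7 processing, gave 10.56, 8.91 and 11.30 in gPS lines against 10.60, 9.95 and 10.38 in GSC lines. The groups overlapped around an almost equal mean, with a log2 change of -0.06 (95% interval -1.33 to 1.22, adjusted p = 0.94), and the sign turned where gPS line 2 was left out (0.62) or the medians of tested probes were equalised (0.10). In gPS line 3, the brightest of the gPS arrays, it lay above all GSC lines. Sall4, a zinc finger factor of both cell types, was bright everywhere, at 12.53, 12.52 and 12.41 in gPS lines against 11.90, 12.10 and 12.08 in GSC lines. Its log2 change of 0.46 was not called (adjusted p = 0.094), although all gPS values lay above all GSC values, and it was called in 6 alternative settings, at adjusted p of 0.0077 with the medians of tested probes equalised to 0.047 with a normexp offset of 50. Of the 7 tested genes of the Dppa family and its neighbours, 6 were called higher (85.7%, against 20.7% of all genes) and 0 lower (against 25.3%). Their median log2 change was 3.99. Dppa5a, an RNA-binding protein of pluripotent cells, gave 15.18, 15.28 and 15.20 in gPS lines against 11.59, 11.35 and 10.75 in GSC lines. Dppa3, also called Stella, was the member that was not called, for its gPS values spread over 5.37, 9.34 and 11.25, against 7.35, 7.72 and 7.33 in GSC lines. It was undetected in gPS line 1 and above all GSC lines in gPS lines 2 and 3, and was called without gPS line 1 (log2 change 2.83, adjusted p = 0.0063).

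Nodal and BMP signalling genes rose at the level of ligands and their inhibitors. Of 15 tested members, 8 were called higher and 1 lower, a share of 53.3% higher against 20.7% over all genes. Lefty2, given above, led them, followed by its relative Lefty1 and by Gdf3, a ligand of the same family. Lefty1 gave 12.50, 10.44 and 10.15 in gPS lines against 5.43, 4.63 and 5.11 in GSC lines and was at least 40.6-fold higher. Gdf3 gave 11.64, 11.24 and 11.49 in gPS lines against 5.21, 5.91 and 5.47 in GSC lines (log2 change 5.93, SE 0.25), where GSC line 2 alone among GSC lines detected it. Bmp4, a ligand that sustains naive cells through Id proteins, gave 11.02, 10.997 and 9.41 in gPS lines against 5.12, 6.68 and 6.46 in GSC lines (log2 change 4.39, SE 0.55, adjusted p = 0.00054). Line 3 was the lowest gPS line for Lefty1, Lefty2, Bmp4 and Gbx2, and it still lay above every GSC line.

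In the LIF, FGF and ERK list, 8 of 14 tested members were called higher (57.1%, against 20.7% of all genes) and 1 lower (7.14%, against 25.3%). Fgf17, an FGF family ligand, gave 9.92, 10.01 and 9.52 in gPS lines against 4.68, 4.73 and 4.59 in GSC lines, at least 17.5-fold higher. Fgf4, the autocrine FGF of embryonic stem cells, was at least 8.22-fold higher, and Socs2, a feedback inhibitor of cytokine receptors, had a log2 change of 3.90 (SE 0.25). Dusp4, a phosphatase of ERK, was uneven, at 7.62, 7.30 and 9.74 in gPS lines against 4.86, 5.13 and 5.57 in GSC lines, with gPS line 3 the highest. Of 9 tested primed epiblast genes, 3 were called higher (33.3%, against 20.7% of all genes) and 1 lower (11.1%, against 25.3%). Without gPS line 1 the higher count was 5. Cldn6, a claudin, Otx2, a homeobox factor, and Epha2, an ephrin receptor, were the higher ones. Cldn6 and Otx2 were undetected in GSC lines and at least 16.5-fold and 6.54-fold higher, and Epha2 had a log2 change of 3.42 (SE 0.54). Pou3f1, also called Oct6, is a spermatogonial regulator too and was lower, at 8.10, 8.72 and 7.79 in gPS lines against 10.16, 10.11 and 10.14 in GSC lines (log2 change -1.94, SE 0.27, adjusted p = 0.00094).

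Spermatogonial regulators were lower as a group. Of 35 tested members, 21 were called lower and 4 higher, which is 60.0% lower against 25.3% over all genes, with a median log2 change of -2.05. Ret, the signalling receptor of GDNF, gave 4.91, 4.59 and 4.51 in gPS lines against 10.37, 10.14 and 10.11 in GSC lines. It was undetected in every gPS line and at least 16.9-fold lower. Gfra1, the partner of Ret that binds GDNF, was close to background in both groups, at 5.69, 4.96 and 5.26 in gPS lines against 5.16, 6.48 and 5.71 in GSC lines, and was not called (log2 change -0.48, adjusted p = 0.32). Sohlh1, a helix-loop-helix factor of early spermatogonia, gave 5.63, 5.61 and 4.77 in gPS lines against 12.30, 11.69 and 12.61 in GSC lines, at least 67.1-fold lower. Ddx4, the germ cell helicase also called Vasa, gave 6.66, 4.85 and 6.36 in gPS lines against 9.91, 10.30 and 10.39 in GSC lines (log2 change -4.24, SE 0.45). Stra8, which responds to retinoic acid at entry to meiosis, was at 6.24, 4.65 and 4.64 in gPS lines against 8.30, 9.27 and 8.33 in GSC lines, and of the gPS lines line 1 detected it.

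Not every gene linked to spermatogonial renewal was lower. Bcl6b, a GDNF-responsive repressor, gave 5.48, 6.92 and 7.13 in gPS lines against 6.77, 7.75 and 6.92 in GSC lines, with overlap and no call (log2 change -0.64, adjusted p = 0.30). Etv5, an ETS factor that is also an ERK target in embryonic stem cells, was higher, at 8.48, 9.35 and 8.85 in gPS lines against 6.64, 8.003 and 6.93 in GSC lines (log2 change 1.70, SE 0.39, adjusted p = 0.0091). Cdh1, the epithelial cadherin that marks undifferentiated spermatogonia as well as pluripotent cells, gave 10.99, 10.25 and 11.47 in gPS lines against 5.94, 6.55 and 6.68 in GSC lines (log2 change 4.51, SE 0.35). Neurog3, a factor of spermatogonial progenitors, was counted among the lower members at an adjusted p of 0.041, yet gPS line 2 carried it at the level of GSC lines. Its values were 4.65, 9.22 and 4.78 in gPS lines against 9.47, 9.17 and 9.71 in GSC lines, so the groups overlapped.

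The piRNA and germ granule machinery silences transposons in germ cells. It was called lower in 14 of 17 tested members (82.4%, against 25.3% of all genes) and higher in 0 (against 20.7%). Tdrkh, a Tudor protein that acts in piRNA trimming, gave 4.83, 4.95 and 4.96 in gPS lines against 11.16, 11.30 and 11.16 in GSC lines, at least 33.7-fold lower. Asz1, a mitochondrial anchor of the pathway, gave 5.60, 4.84 and 5.68 in gPS lines against 12.00, 11.52 and 12.00 in GSC lines, at least 52.3-fold lower. Tdrd7, a germ granule Tudor protein, had a log2 change of -5.74 (SE 0.28). Tdrkh and Asz1 were undetected in every gPS line, and Tdrd7 was detected in gPS line 2 alone among gPS lines. Of 13 tested genes of the meiotic axis, cohesin and recombination, 10 were called lower (76.9%, against 25.3%) and 1 higher (7.69%, against 20.7%). Smc1b, a meiotic cohesin subunit, gave 4.68, 4.43 and 5.01 in gPS lines against 11.35, 10.98 and 11.47 in GSC lines, at least 35.2-fold lower. Stag3, another meiotic cohesin subunit, stayed detected on the gPS side, at 7.52, 8.26 and 7.55 against 11.80, 11.91 and 11.87 in GSC lines (log2 change -4.08, SE 0.26).

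In a list of paralogs of basal transcription factors, with the bromodomain protein Brdt beside them, 4 of 4 tested members were called lower. Taf7l, a germ cell paralog of the TFIID subunit Taf7, gave 5.32, 5.08 and 4.87 in gPS lines against 12.17, 12.41 and 12.40 in GSC lines, at least 73.4-fold lower. Taf9b, a paralog of Taf9, gave 6.37, 6.004 and 6.74 in gPS lines against 12.72, 12.77 and 13.11 in GSC lines (log2 change -6.50, SE 0.26). Brdt, the testis bromodomain protein, was at least 6.89-fold lower and Tbpl1, a TBP-like factor, at least 1.14-fold lower. Among 9 tested general TFIID subunits, 2 were called lower (22.2%, against 25.3% of all genes) and 1 higher (11.1%, against 20.7%). The other 6 were not called, and the median log2 change was -0.25. Taf5 and Taf6 were the lower ones, at log2 changes of -1.32 (SE 0.23) and -1.33 (SE 0.40), and Taf12 was higher at 1.11 (SE 0.22). The call of Taf6 was lost where gPS line 3 or any GSC line was left out, at adjusted p of 0.061 to 0.088, and with no probe filter (0.073).

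Several of the strongest falls were on the X chromosome. Of 284 tested X-linked genes, 20 were called at least 16-fold lower (7.04%), whereas the share was 0 to 1.98% on the autosomes, the highest of them chromosome 6. Over all sizes of change, 78 X-linked genes were called higher (27.5%, against 20.7% of all genes) and 79 lower (27.8%, against 25.3%). Their median log2 change was 0.08, against -0.112 over all genes, and small changes have no settled sign here. All 13 tested members of the list of X-linked cancer-testis genes, genes of the germline that tumours can express, were called lower, against 25.3% of all genes, at a median log2 change of -5.55. Like the other lists, that list was drawn up with earlier results of these data known, so its count describes the list. Besides Xlr4a and Taf7l, Mageb4, a MAGE family gene, gave 6.98, 5.85 and 5.52 in gPS lines against 12.85, 12.97 and 12.77 in GSC lines. Tktl1, a transketolase-like gene, gave 4.56, 4.46 and 4.52 in gPS lines against 10.75, 10.60 and 10.45 in GSC lines, at least 22.2-fold lower. Tex11, a meiotic crossover gene, and Tex13b were at least 29.2-fold and 25.9-fold lower. Slc7a3 and Eras, which rose, are X-linked as well.

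**Figure D2:**
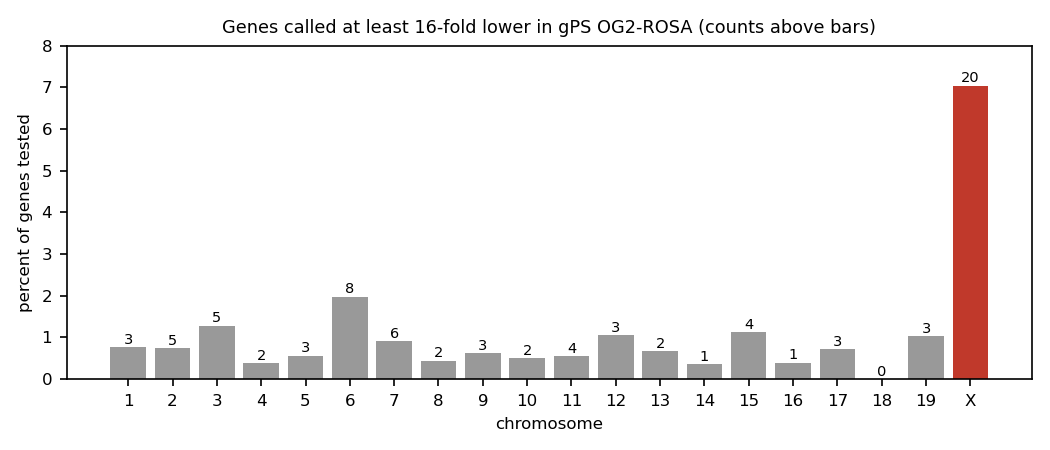
Percent of the genes tested on each chromosome (y axis, bars from 0) that were called at least 16-fold lower in gPS OG2-ROSA than in GSC OG2-ROSA lines, with the number of genes above each bar. The X chromosome, in red, stands at 7.04% (20 of 284 genes) and the autosomes at 0 to 1.98%; the Y chromosome is left out.

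Of 6 tested Y-linked genes, 4 were called lower (66.7%, against 25.3% of all genes) and 2 were not called. Usp9y, a deubiquitinase gene, gave 4.43, 4.69 and 4.53 in gPS lines against 10.04, 8.80 and 9.45 in GSC lines, at least 9.86-fold lower. Eif2s3y, a translation initiation factor subunit needed for spermatogonial proliferation, gave 4.57, 4.77 and 8.44 in gPS lines against 10.39, 10.06 and 10.12 in GSC lines (log2 change -4.26, SE 0.91, adjusted p = 0.0065). It was undetected in gPS lines 1 and 2 and detected in gPS line 3, which still lay below every GSC line. Kdm5d, a histone demethylase, was at least 2.09-fold lower, and Zfy1, a zinc finger gene, was undetected in every gPS line with no bound above 1. The call of Zfy1 (adjusted p = 0.0077) was lost where the medians of tested probes were equalised (0.093). Uty and Sly were the genes not called, at adjusted p of 0.13 and 0.37, and both are named after their values were seen.

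Oocyte and spermatid genes split. Of 9 tested oocyte and NLR family genes, 5 were called lower (55.6%, against 25.3% of all genes) and 2 higher (22.2%, against 20.7%). Nlrp4c gave 4.84, 4.90 and 4.79 in gPS lines against 11.66, 12.04 and 11.83 in GSC lines, at least 52.5-fold lower, and Nlrp14 was at least 4.95-fold lower. On the other side, Ooep, a maternal factor of the oocyte cortex, gave 13.00, 12.86 and 12.64 in gPS lines against 8.53, 7.43 and 7.82 in GSC lines (log2 change 4.91, SE 0.31). Khdc3, its partner in the subcortical maternal complex, gave 10.01, 9.82 and 6.99 in gPS lines against 5.47, 5.70 and 5.09 in GSC lines, where it was undetected, at least 9.54-fold higher. Of 7 tested postmeiotic genes, 4 were called lower, among them Ldhc, the sperm lactate dehydrogenase, at a log2 change of -3.55 (SE 0.33), and 1 higher.

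**Figure D3:**
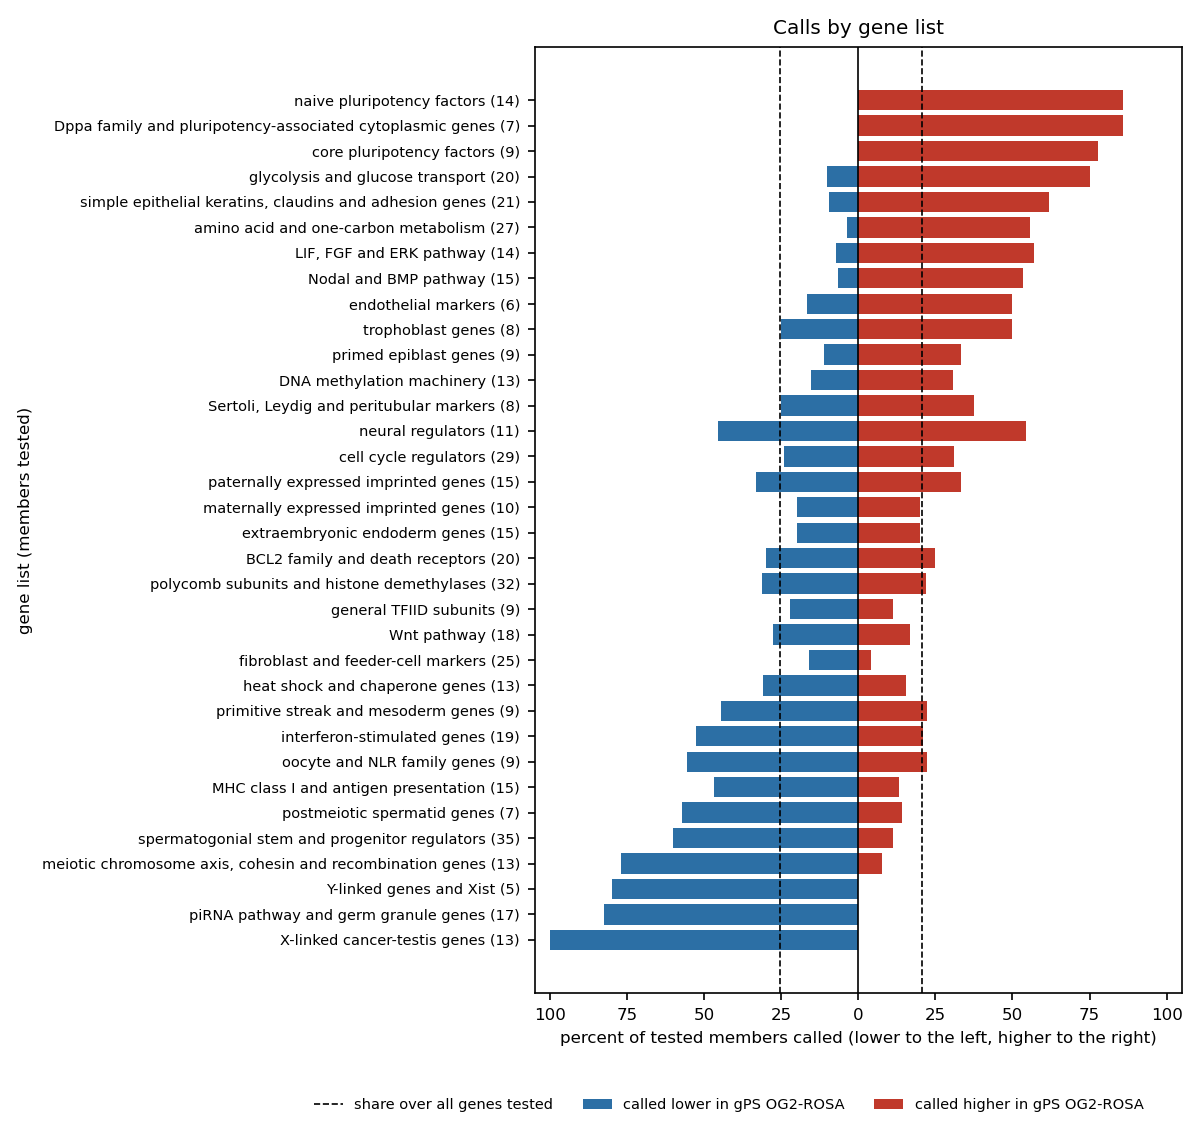
Percent of tested members called lower (blue, to the left) and higher (red, to the right) in gPS OG2-ROSA than in GSC OG2-ROSA lines, for the 34 gene lists with at least 5 tested members; the number tested stands in brackets. Dashed lines mark the shares over all genes, 25.3% lower and 20.7% higher; the naive factors reach 85.7% higher and the piRNA list 82.4% lower.

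DNA methylation genes did not move together. Of 13 tested members, 4 were called higher (30.8%, against 20.7% of all genes) and 2 lower (15.4%, against 25.3%). Without GSC line 3 the lower count was 0. Dnmt3l, the cofactor of the de novo methyltransferases that both fetal germ cells and embryonic stem cells use, gave 13.42, 14.32 and 13.67 in gPS lines against 6.41, 7.08 and 7.57 in GSC lines (log2 change 6.79, SE 0.36, adjusted p = 1.3e-05). It was detected in every line, and no gPS value came near the GSC values. Tdg, a glycosylase of active demethylation, Gadd45a, a stress-response protein linked to demethylation, and Mbd3, a subunit of the NuRD complex, had log2 changes of 2.10, 2.11 and 1.63. Polycomb subunits and histone demethylases were likewise mixed, with 7 of 32 called higher (21.9%) and 10 lower (31.2%), near the shares of all genes. Their median log2 change of 0.11 was -0.31 where arrays were scaled to equal medians. Cbx8, a polycomb chromobox protein, gave 4.98, 4.64 and 4.73 in gPS lines against 8.61, 8.63 and 9.06 in GSC lines, at least 6.22-fold lower, and Bmi1, a RING partner, was at least 3.60-fold lower. Kdm4c, a histone demethylase of pluripotent cells, gave 9.72, 8.25 and 9.37 in gPS lines against 5.205, 5.37 and 5.69 in GSC lines (log2 change 3.69, SE 0.38), where GSC line 3 alone among GSC lines detected it.

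Imprinted genes, which are expressed from 1 parental copy, changed in both directions. Of 15 tested paternally expressed genes, 5 were called higher and 5 lower (33.3% each, against 20.7% and 25.3% of all genes). Snrpn, a splicing factor gene of the Prader-Willi region, gave 13.44, 13.46 and 13.48 in gPS lines against 8.88, 9.13 and 9.19 in GSC lines (log2 change 4.39, SE 0.20, adjusted p = 6.9e-06), with nearly equal gPS values. Igf2, a fetal growth factor, gave 9.29, 9.06 and 10.83 in gPS lines against 13.81, 12.86 and 13.71 in GSC lines (log2 change -3.73, SE 0.49). Impact and Ddc had log2 changes of 2.91 and 3.72. Peg3, a zinc finger gene, gave 4.69, 7.42 and 6.41 in gPS lines against 4.76, 4.996 and 5.40 in GSC lines and was not called (adjusted p = 0.17), but was called without gPS line 1 (log2 change 1.86, adjusted p = 0.0076). Of 10 tested maternally expressed genes, 2 were called higher and 2 lower (20% each), near the shares of all genes. Cdkn1c, an inhibitor of cyclin-dependent kinases, had a log2 change of -2.21 and Phlda2, a placental growth regulator, one of 1.92. Igf2r (-0.90, adjusted p = 0.021) lost its call where gPS line 1, GSC line 1 or GSC line 3 was left out, at adjusted p of 0.057 to 0.077, and Ppp1r9a (1.44, adjusted p = 0.019) where gPS line 1 or GSC line 3 was, at 0.058 and 0.052.

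Glycolysis genes rose broadly. Of 20 tested members, 15 were called higher and 2 lower, a share of 75% against 20.7% over all genes, at a median log2 change of 1.79. Pfkl, a phosphofructokinase, gave 12.76, 12.02 and 11.90 in gPS lines against 8.26, 8.19 and 8.83 in GSC lines (log2 change 3.80, SE 0.30). Ldha, which turns pyruvate into lactate, gave 14.06, 13.70 and 13.39 in gPS lines against 10.84, 10.13 and 10.68 in GSC lines (log2 change 3.17, SE 0.28). Pfkp, another phosphofructokinase, was uneven among gPS lines, at 11.51, 10.48 and 8.83, against 7.28, 7.04 and 7.17 in GSC lines. Aldoa, the aldolase of muscle and most cells, had a log2 change of 2.63 (SE 0.32). Amino acid and one-carbon genes were called higher in 15 of 27 tested members (55.6%, against 20.7%) and lower in 1 (3.7%, against 25.3%). Bcat1 gave 12.35, 12.34 and 12.17 in gPS lines against 6.03, 5.73 and 6.25 in GSC lines, and Bcat2, its mitochondrial counterpart, had a log2 change of 4.03 (SE 0.26). Slc7a3 gave 13.27, 12.56 and 12.55 in gPS lines against 6.66, 6.39 and 7.02 in GSC lines. Bcat1, Bcat2 and Slc7a3 were named as being among the largest called changes of this list, so their wide separation follows from that choice. Of the 27 tested members, 11 were not called.

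Cell cycle regulators changed in both directions, in shares near those of all genes. Of 29 tested members, 9 were called higher (31%, against 20.7% of all genes) and 7 lower (24.1%, against 25.3%), and without GSC line 1 the higher count was 5. Ccnd2, the cyclin D of spermatogonia, gave 5.56, 7.79 and 6.83 in gPS lines against 10.99, 11.10 and 10.97 in GSC lines (log2 change -4.30, SE 0.50). Ccne1, cyclin E1, moved the other way, at 10.54, 11.18 and 10.35 in gPS lines against 6.10, 6.70 and 6.49 in GSC lines (log2 change 4.26, SE 0.29). Cdkn2a, the locus of the p16 and Arf inhibitors, gave 4.85, 8.20 and 7.97 in gPS lines against 10.59, 10.38 and 9.99 in GSC lines, undetected in gPS line 1 and lower in all gPS lines (log2 change -3.31, SE 0.80, adjusted p = 0.011). In the BCL2 and death receptor list, 5 of 20 were called higher (25%) and 6 lower (30%), also near the shares of all genes. Mcl1, a survival protein, had a log2 change of 2.21 (SE 0.25), whereas Bik, a pro-apoptotic BH3 protein, and Fas, a death receptor, were at least 4.17-fold and 1.84-fold lower.

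Of 19 tested interferon-stimulated genes, 10 were called lower (52.6%, against 25.3% of all genes) and 4 higher (21.1%, against 20.7%), and the higher count was 1 without GSC line 3. Oasl2, an antiviral oligoadenylate synthetase-like protein, gave 5.203, 4.70 and 5.74 in gPS lines against 11.49, 11.17 and 11.74 in GSC lines, at least 40.4-fold lower. Gbp2 and Gbp3, interferon-induced GTPases, were at least 26.5-fold and 12.7-fold lower. Ifi27, an interferon-inducible membrane protein, gave 5.11, 5.76 and 6.89 in gPS lines against 12.44, 11.92 and 11.68 in GSC lines. Oasl2, Gbp2 and Gbp3 were undetected in every gPS line, and Ifi27 was detected in gPS line 3. In the MHC class I and antigen presentation list, 7 of 15 were called lower (46.7%, against 25.3% of all genes) and 2 higher (13.3%, against 20.7%). H2-M3, a nonclassical class I molecule, gave 6.03, 5.45 and 5.02 in gPS lines against 9.45, 9.49 and 9.52 in GSC lines (log2 change -3.99, SE 0.28) and was detected in gPS line 1 alone among gPS lines, and Psmb9, an immunoproteasome subunit, was at least 3.49-fold lower. Tapbp, a peptide-loading chaperone, had overlapping groups and an adjusted p of 0.027, and lost its call where gPS line 2 or 3 or GSC line 1 or 3 was left out (0.054 to 0.095).

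Of 21 tested epithelial genes, 13 were called higher (61.9%, against 20.7% of all genes) and 2 lower (9.52%, against 25.3%). Cldn4 gave 10.98, 10.85 and 11.53 in gPS lines against 5.04, 4.94 and 4.96 in GSC lines, and Krt42 gave 10.90, 10.76 and 9.76 against 4.95, 4.96 and 4.71. Both were detected in every gPS line and in no GSC line. Hspb1, a small heat shock protein, stood apart among 13 tested chaperone genes, of which 2 were called higher (15.4%) and 4 lower (30.8%). It gave 12.07, 11.97 and 11.62 in gPS lines against 6.79, 6.68 and 6.79 in GSC lines (log2 change 5.14, SE 0.22).

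Genes of other lineages changed in both directions, as did all genes, of which 20.7% were called higher and 25.3% lower. Of 11 tested neural regulators, 6 were called higher (54.5%) and 5 lower (45.5%). Zic1, a zinc finger factor, gave 4.72, 4.62 and 4.62 in gPS lines against 8.28, 11.87 and 11.28 in GSC lines, detected in every GSC line and in no gPS line, with GSC line 1 the dimmest (at least 20.3-fold lower in gPS lines). Foxc2 and Foxf1, forkhead factors of mesoderm, were likewise detected in every GSC line and in no gPS line, at least 11.4-fold and 11.5-fold lower. Of 9 tested primitive streak and mesoderm genes, 4 were called lower (44.4%), or 2 without GSC line 3, and 2 higher (22.2%). Mylpf, a skeletal myosin light chain, was one of the higher ones, at 11.19, 10.75 and 12.25 in gPS lines against 6.50, 5.99 and 5.87 in GSC lines. Of 15 tested extraembryonic endoderm genes 3 were called higher and 3 lower (20% each), near the shares of all genes. Apoe was the largest rise, at a log2 change of 4.24 (SE 0.27). Of 8 tested trophoblast genes 4 were called higher (50%) and 2 lower (25%). Tfap2c, an AP-2 factor shared with germ cells, led them, at 9.70, 10.67 and 11.76 in gPS lines against 8.12, 8.98 and 8.53 in GSC lines. Of 18 tested Wnt pathway genes 3 were called higher (16.7%) and 5 lower (27.8%), near the shares of all genes, or 3 lower without GSC line 1. The receptors Fzd7 and Fzd2 moved in opposite directions, at a log2 change of 2.42 for Fzd7 and at least 3.86-fold lower for Fzd2.

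Markers of cells that can accompany such cultures were measured beside these results. Of 25 tested fibroblast and feeder-cell markers, 4 were called lower (16%) and 1 higher (4%), both below the 25.3% and 20.7% of all genes, and 20 were not called. The lower count was 2 without gPS line 1, GSC line 1 or GSC line 3. The mean log2 intensity of the list was 6.61, 7.65 and 8.26 in gPS lines 1, 2 and 3, against 9.17, 7.29 and 8.61 in GSC lines 1, 2 and 3. The groups overlapped, since GSC line 2 lay below gPS lines 2 and 3. The number of these markers detected was 12, 16 and 22 of 25 in gPS lines against 25, 19 and 25 in GSC lines. Dcn, decorin, a proteoglycan of fibroblasts, gave 5.37, 5.21 and 8.17 in gPS lines against 11.65, 5.68 and 10.84 in GSC lines. It was undetected in GSC line 2 and not called (log2 change -3.14, SE 1.5, adjusted p = 0.12), and it was called without that line (log2 change -4.99, adjusted p = 0.0057). Of 3 tested macrophage and blood markers, Lyz1 and Lyz2, the lysozymes, were lower and Laptm5 was higher. Ptprc and Itgam were undetected on all 6 arrays, and Cd14, Adgre1 and Fcer1g were detected on 1 array each. Lyz1 gave 5.19, 4.79 and 7.22 in gPS lines against 11.06, 12.84 and 12.51 in GSC lines. Of 8 tested Sertoli, Leydig and peritubular markers 3 were called higher (37.5%) and 2 lower (25%), or 5 higher without gPS line 1. Their median log2 change was 1.32. Sox9, Amh and Insl3 were undetected on all 6 arrays, and Dhh, Cyp11a1 and Gdnf were detected on 1 array each. Aard was higher, at 11.46, 9.69 and 9.84 in gPS lines against 7.23, 7.11 and 6.69 in GSC lines. Clu was also called higher (log2 change 1.45), a call lost where arrays were scaled to equal medians. Wt1, a zinc finger factor of gonadal somatic cells, gave 5.10, 5.02 and 5.57 in gPS lines against 8.03, 7.66 and 7.92 in GSC lines, and Cldn11, a claudin of Sertoli cells, gave 4.62, 4.52 and 4.55 against 7.37, 6.96 and 7.94. Both were detected in every GSC line and in no gPS line, at least 3.34-fold and 2.45-fold lower. Of 6 tested endothelial markers 3 were called higher (50%) and 1 lower (16.7%). Cdh5 was undetected on all 6 arrays and Vwf was detected on 1. Pecam1, an adhesion molecule that embryonic stem cells carry too, was at least 5.90-fold higher. The part of such cells in the results above was not tested.

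The gPS lines differed among themselves more than the GSC lines did. Of 10679 probes detected at least once in gPS lines, 662 spanned 4-fold or more between the 3 lines (6.20%), against 113 of 11481 in GSC lines (0.984%). The median SD over tested probes was 0.365 in gPS lines and 0.217 in GSC lines. Of the 662, gPS line 2 was farthest from the median line at 431, and below it at 396 of these. Hspa5, a chaperone of the endoplasmic reticulum, illustrates this, at 10.01, 5.64 and 8.40 in gPS lines against 8.43, 7.89 and 8.71 in GSC lines. Rpl22l1, a ribosomal protein paralog, gave 8.91, 5.50 and 9.69 in gPS lines against 9.63, 9.32 and 9.34 in GSC lines. Both were undetected in gPS line 2, the array of lowest mean signal, and detected in the 5 other lines. Rhox5, an X-linked homeobox gene of the Rhox cluster, gave 5.83, 6.89 and 10.23 in gPS lines against 5.79, 5.31 and 5.45 in GSC lines, where gPS line 3 stood apart, and was not called (log2 change 2.13, adjusted p = 0.11). Mgp, matrix Gla protein, had the widest span, at 4.97, 10.89 and 8.43 in gPS lines against 9.42, 10.13 and 7.90 in GSC lines. Among GSC lines, line 2 was the farthest at 89 of the 113 probes and below at 75. Thbs2, Serpina3n and Ptn, secreted proteins, were dim there, Thbs2 for example at 5.90, 7.17 and 9.51 in gPS lines against 10.30, 6.16 and 9.72 in GSC lines. Line 3 was the gPS line nearest to the embryonic stem cell mean across probes (r = 0.982) and line 2 the farthest (r = 0.918), while GSC lines were at 0.773 to 0.796. This order of gPS lines was also that of array brightness. Mean raw signal was 580 for gPS line 3 and 308 for line 2, against 622 and 584 on the embryonic stem cell arrays. The part of brightness in the order was not tested.

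**Figure D4:**
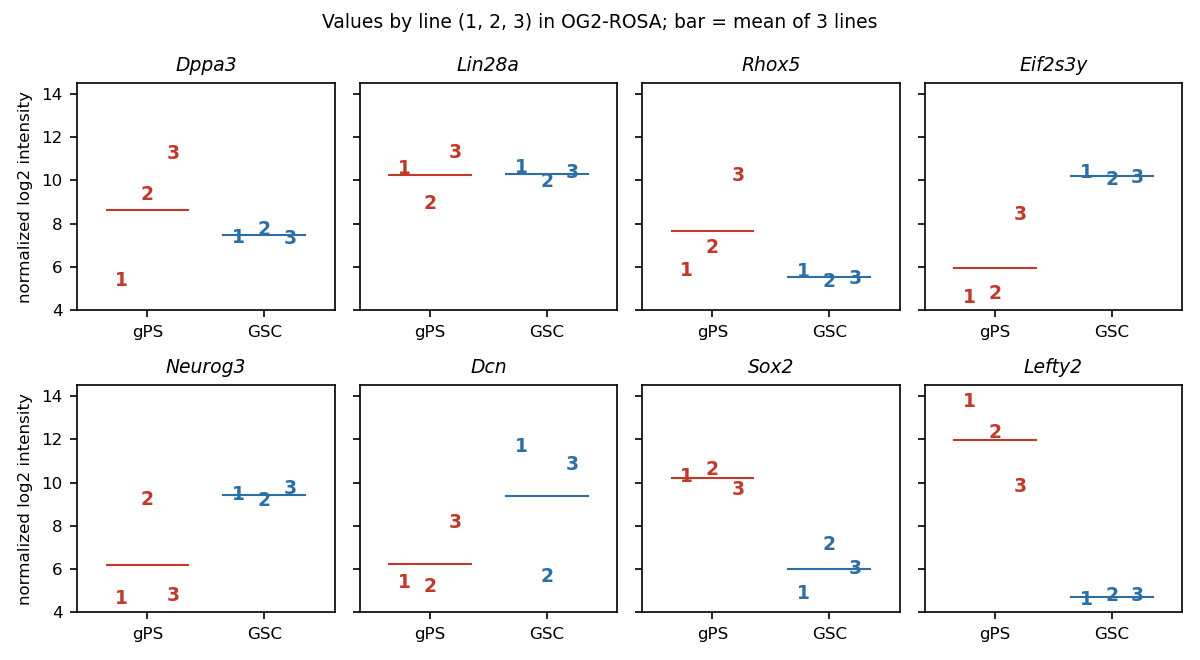
Normalized log2 intensity (y axis) of 8 genes in gPS OG2-ROSA (red, left) and GSC OG2-ROSA (blue, right) lines, where each digit is the line number and each bar the mean of 3 lines. Dppa3, Rhox5 and Eif2s3y set gPS line 3 apart from line 1, Neurog3 is high in gPS line 2 (9.22), and Dcn is low in GSC line 2 (5.68).

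The same conversion in the OG2 background used other arrays, 3 gPS OG2 and 3 GSC OG2 lines, so no sample was shared. Of the 2542 probes called higher in the OG2-ROSA conversion, 2091 (82.3%) were also called higher in OG2, which is 71.4% of the 2928 called there. Of the 2847 called lower, 2370 (83.2%) were called lower in OG2, or 73.7% of 3215. A test of the difference between the conversions called 1 of 12006 probes (0.00833%) in limma, and 485 had an unadjusted p under 0.05. That probe was Olig1, a helix-loop-helix factor of the oligodendrocyte lineage. It gave 11.56, 11.49 and 10.12 in gPS OG2-ROSA lines against 5.23, 5.01 and 5.29 in GSC OG2-ROSA lines, where it was undetected, and was at least 41.4-fold higher. In the OG2 background it averaged 4.61 in gPS lines and 5.18 in GSC lines, so the rise was seen in every OG2-ROSA gPS line and was missing from the OG2 mean. The difference of the log2 changes was 6.45 (SE 0.46, adjusted p = 6.7e-05). Ubd, a ubiquitin-like protein, came next on the higher side, at 6.999, 7.44 and 9.04 in gPS OG2-ROSA lines against 5.01, 5.14 and 4.82 in GSC OG2-ROSA lines, and averaged 4.88 in gPS OG2 and 5.32 in GSC OG2 lines. Its difference of 3.28 (SE 0.57) was not called (adjusted p = 0.27), and neither were those of Igdcc3, Cstdc4 and Evc. Strain, the LacZ transgene and any batch differ between the backgrounds together and cannot be told apart.

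**Figure D5:**
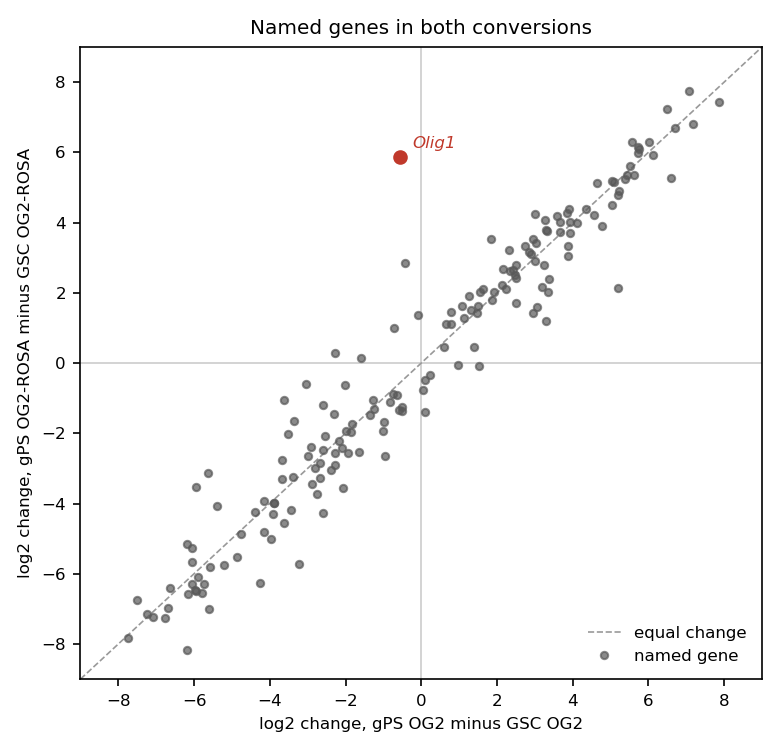
Log2 change in the OG2-ROSA conversion (y axis) against that in the OG2 conversion (x axis) for the 171 named genes, 1 point per gene, with a dashed line where both are equal. Olig1, in red, lies at 5.88 in OG2-ROSA and -0.57 in OG2, apart from the other genes.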

How the data were processed

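RNA of 14 mouse cell samples, 6 of them compared here, was hybridised to Illumina Mouse-8 v2 BeadChips, per the labels' protocols. Per the submitters' processing notes, the tools were BeadStudio 3.2, lumi and RMA, in no stated order. The authors deposited, per the file headers, a signal intensity and a detection p-value for each probe and array. A table of log2 values processed by the authors was also deposited and served as an alternative. Its scale ranks each array as the signal does, and no source used here states how it was centred or scaled between arrays.

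Intensities of all 14 arrays were background-corrected and quantile-normalized together by neqc with an offset of 16 in limma 3.58.1 (R 4.3.3). Probes that 2 or more of the 6 arrays detected (p below 0.01) were fitted with lmFit and eBayes on those 6 arrays, and p-values were Benjamini-Hochberg adjusted over the 12006 tested probes. The difference between conversions was fitted on the 12 gPS and GSC arrays. Symbols came from the platform annotation, which gave 1 symbol for 23978 probes and none for 1719, and 691 tested probes stayed unnamed. A gene in a list was read from its tested probe of highest mean, and a gene among the largest changes from its probe of largest change. Named genes were the 15 largest rises and falls, the 4 largest called changes in each of 38 lists, a set of marker genes, the 10 widest ranges in each group and the 5 smallest p-values of the difference. The members and lists were chosen with earlier results of these data known. Promoters were those of RefSeq on GRCm38.p6. For named genes, promoters on chromosome 18 were left out, and 126 of 171 named genes then had a promoter.

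The labels do not settle whether the lines of a group are biological or technical replicates, so p-values measure the spread between these samples. The number of arrays limits the precision. The fit for this comparison was also run on simulated data with 200 changed probes among 12006. There it recovered 13% of changes of 1 and 63% of changes of 2 on the log2 scale, with 5 unchanged probes called. In the real data 44.9% of tested probes were called, so these rates do not give the recovery in this comparison. The labels do not say whether lines that share a number are paired, and the values cannot settle it, so numbers were not used as pairs.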

Additional observations from a re-analysis of the deposited data

Results flagged for a closer look

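Olig1 changed differently in the OG2-ROSA and OG2 conversions by a test of that difference in limma. It averaged 11.06 in gPS OG2-ROSA and 5.18 in GSC OG2-ROSA lines, and 4.61 in gPS OG2 and 5.18 in GSC OG2 lines. The difference of the log2 changes was 6.45 (SE 0.46, adjusted p = 6.7e-05), and all 3 gPS OG2-ROSA lines were above all 3 GSC OG2-ROSA lines.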

How the results depend on the processing

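Under the alternatives run, 3849 to 5792 probes were called with 1 line left out and 3630 to 4270 at least 2-fold, against 5389 and 4111. With no background correction, 2308 were called at least 2-fold, the only setting run that moved either count by over 1.5 times. The difference between the conversions was called at 3 probes with array weights, at 4 without both dim arrays (which leaves 1 gPS line, assumed to vary like the other groups) and at 1 to 7 with 1 line left out, the 7 without gPS OG2-ROSA line 3. It could not be fitted with the 6 arrays normalized alone. With the line number as a replicate block, 4796 probes were called, 4132 at least 2-fold and 1 for the difference. Between gPS and GSC lines of one number, the r of deviations was -0.171, 0.001 and -0.109 for lines 1, 2 and 3. With 3 lines a group these values cannot settle whether the numbers pair the lines. The authors' processed values gave 5178 and 4496. Over 158 named genes and 19 alternatives each, 2919 values kept direction and call, 57 lost the call, 13 gained it and 7 changed sign. Lin28a turned to 0.246 with array weights, 0.100 with tested-probe medians equalised (a setting chosen after seeing the data), 0.985 without both dim arrays, 0.615 without gPS line 2 and 0.091 without GSC line 1. Dppa3 turned to -0.113 without gPS line 3, and Igdcc3 to 0.156 with tested-probe medians equalised. With 1 line left out, Lin28a spanned -0.577 to 0.615 and Dppa3 -0.113 to 2.83. The causes were not tested. Of the list counts, 1342 stayed within 1.5 times and 102 did not. Signals near background limit the bounds given, and 3 lines a group limit small changes.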

Other observations

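Several further genes are given here. Their groups did not overlap, as was common, at 26% of all genes with gPS lines higher and 32% with gPS lines lower. E2f4, a cell cycle factor of the E2F family, gave 8.70, 9.23 and 9.55 in gPS lines against 6.27, 6.57 and 6.29 in GSC lines (log2 change 2.78, SE 0.27). Birc5, the mitotic protein survivin, gave 11.66, 11.64 and 11.55 in gPS lines against 9.74, 9.96 and 9.78 in GSC lines. Kdm6a, an X-linked histone demethylase, had a log2 change of 2.02 (SE 0.24, adjusted p = 0.00044), and Rhox10, an X-linked homeobox gene of spermatogonia, one of -5.27 (SE 0.49). Rhox10 was at 4.74, 6.46 and 4.55 in gPS lines against 10.83, 10.55 and 10.19 in GSC lines, and was detected in gPS line 2 alone among gPS lines.

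Cpsf4l was detected in GSC line 2 alone among GSC lines, at 9.15, 8.92 and 10.08 in gPS lines against 4.76, 9.02 and 4.68 in GSC lines. Of genes with several tested probes, some had probes called in opposite directions, among them Kif1b and Tsc22d1, picked after their values were seen, so such genes have no single direction here.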
